A study of Homo sapiens with 96 samples.

Results

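KDR-high and KDR-low cells were single human embryonic stem cells of the HUES64 line, chosen by their own level of KDR messenger RNA. Of 96 single-cell libraries, 72 had at least 100000 reads on genes, at least 2000 genes with a read, at least 1% of gene reads on mitochondrially encoded genes and GAPDH of at least 50 CPM (counts scaled to the total on genes). Among these 72, 30 had KDR of at least 100 CPM (KDR-high), 23 had KDR under 10 CPM (KDR-low) and 19 lay between (KDR-intermediate). Each cell filled 1 of the wells in 8 plate rows by 12 columns, and its library was made by poly(A)+ capture and SMART-seq2, a protocol that amplifies whole transcripts from 1 cell. All cells shared the same labels: HUES64, an established cell line, at day 0, with the genotype inducible DNMT1 KO. The description of every well reads dox+ while its doxycycline field reads No, so whether the cells had met the inducer is not settled here. DNMT1, the maintenance DNA methyltransferase, was counted over the whole gene and so does not check a deletion. DNMT1 averaged 32.3 ± 45.1 CPM (SD, n = 30 libraries) in KDR-high and 35.5 ± 58.7 CPM (SD, n = 23) in KDR-low libraries, with overlapping ranges from 0 to 152 and from 0 to 213 CPM.

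KDR encodes VEGF receptor 2, the receptor tyrosine kinase through which VEGF-A signals to endothelial cells. In embryos it marks mesoderm cells that give rise to blood, endothelium and heart, and it is also expressed by undifferentiated human embryonic stem cells. Primed human stem cells are held by POU5F1, SOX2 and NANOG together with NODAL and FGF signals, and they pass through a primitive streak state, with MIXL1, EOMES and TBXT, on the way to mesoderm.

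The 250 bases before the KDR start are shown because KDR sorted the cells. They lie at chr4:55125596-55125845 on the minus strand (RefSeq, GRCh38.p14) and are printed 5′ to 3′, with GC boxes (GGGCGG on either strand) in capitals.
KDR: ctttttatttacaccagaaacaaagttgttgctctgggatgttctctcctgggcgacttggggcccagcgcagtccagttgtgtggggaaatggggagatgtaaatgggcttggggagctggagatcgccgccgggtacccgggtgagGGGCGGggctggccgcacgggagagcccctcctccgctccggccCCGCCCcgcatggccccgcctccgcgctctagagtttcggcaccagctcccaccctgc
The window held 2 GC boxes, no TATAAA on either strand, 17 CG dinucleotides and 3 CCGG sites, the sequence that MspI cuts in reduced-representation bisulfite libraries. Among 27305 RefSeq promoter windows of the same length, 42.3% held a GC box, 11.1% held TATAAA and 57.9% held CCGG, and the median count of CG was 11. The KDR gene itself spans chr4:55078259-55125595 on the minus strand in GENCODE 29 (GRCh38), from which all gene spans below were taken.

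KDR ranged continuously over the kept cells. In KDR-high libraries it was 112 CPM at the lowest, 207 at the median and 855 at the highest. In KDR-low libraries it was 0, 2.08 and 9.69 CPM, with 8 libraries without a KDR read and 15 with 1 to 6 reads. The last library under the upper threshold had 95.3 CPM and the first above it 112.1 CPM. At the lower threshold the neighbours had 9.69 and 13.2 CPM, which were 5 and 7 reads. Summed over libraries, KDR had 7053 reads in the high class and 38 in the low class. No gap in the data stands behind the upper threshold, and a level of 3 reads corresponded to between 1.6 and 15.3 CPM in these libraries. These values chose the classes and are given as a description.

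**Figure D1:**
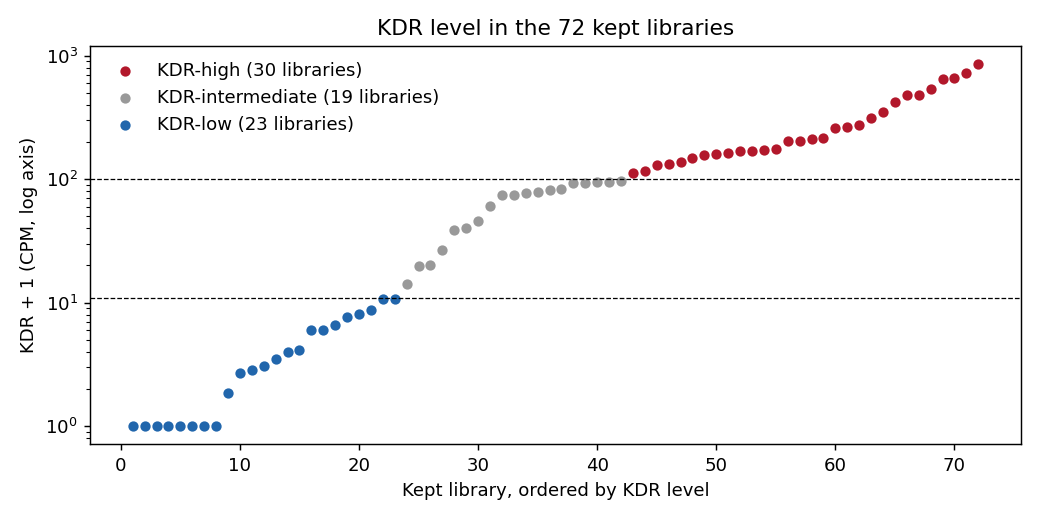
KDR + 1 in CPM (log axis) in each of the 72 kept libraries, ordered by level, with the thresholds of 10 and 100 CPM as dashed lines. Levels run without a break through the upper threshold, from 95.3 to 112.1 CPM.

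No label names a second culture, so the cells were taken as 1 culture and each class as 1 sample split by a measured gene. No test was made, and the values below describe these libraries. SDs are over cells. Intervals are exact at 95%: those on a share of libraries are binomial and treat the cells as independent draws from this culture, and those on summed reads are Poisson. Both cover counting error only, and reads without molecular identifiers are not independent molecules. A gene was counted as higher or lower when the mean CPM of the 2 classes differed at least 2-fold, both with all libraries and with the highest library of each class for that gene left out. This was asked of 8416 genes other than KDR, those averaging 10 CPM or more over the 72 kept libraries and read in at least 50% of them.

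The classes differed in library measures as well as in KDR. Gene reads had a median of 768161 in KDR-high libraries (288610 to 1877840) and of 585137 in KDR-low libraries (196136 to 1270970). GAPDH, a glycolytic enzyme and common RNA quality measure, had a median of 1585 CPM in KDR-high (201 to 3236) and 637 CPM in KDR-low libraries (79.5 to 2879). The mitochondrial share was alike at the median, 9.43% and 9.37%, but reached 16.3% at most in KDR-high and 41.8% in KDR-low libraries. At 100000 reads each, the median number of genes was 7764.5 and 7479. The part of these measures in the results that follow was not tested.

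Libraries also differed by plate row. Rows F and G had a median of 29.3% of reads outside genes in KDR-high and 33.8% in KDR-low libraries, against 15.9% and 15.4% in rows A to E and H, with no overlap. Rows F and G held 6 KDR-high and 8 KDR-low libraries, and the other rows 24 and 15. Row F alone held 1 and 6. In KDR-low, well E10 stood apart with 196136 gene reads, a mitochondrial share of 41.8%, no POU5F1 read and 1 read each of LDHB and RPLP0. Values are given by plate part or without such wells where they change a count.

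**Figure D2:**
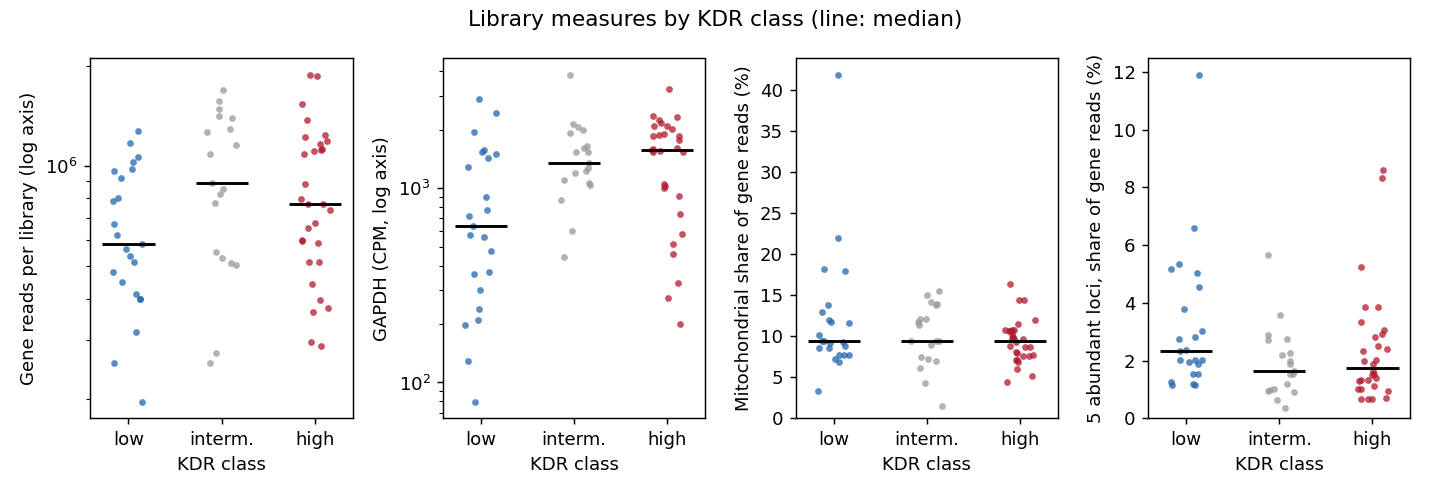
Gene reads, GAPDH (both log axes), the mitochondrial share of gene reads and the share on 5 abundant loci (KCNJ2, PDE4A, DGCR14, RP11-217O12.1, FLG-AS1) in each kept library, by KDR class; points are libraries and lines are medians. GAPDH is lower at the median in KDR-low libraries (637 CPM) than in KDR-intermediate (1351) and KDR-high ones (1585), and the classes overlap in every panel.

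Of the 8416 genes, 876 (10.4%) were at least 2-fold higher and 442 (5.25%) at least 2-fold lower in KDR-high libraries. No gene separated the classes without overlap. The median log2 ratio over all 8416 genes was 0.08, with quartiles of -0.38 and 0.53. Higher genes thus made up 66.5% of those past the fold, but 78.4% with TMM scaling (1052 higher, 290 lower) and 77.9% with median-of-ratios scaling (972 and 276) and 58.9% when mitochondrial genes and the 5 abundant loci were left out of the total (855 and 597). With no filter on low genes the share was 33.7% (3729 higher, 7320 lower), so which direction held more genes depended on that filter. It was 92.2% with mean log2(CPM + 1) (1804 and 152) and 96.8% with mean log2(CPM + 10) (392 and 13). Leaving out 1 library at a time gave 831 to 980 higher and 343 to 540 lower genes.

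**Figure D3:**
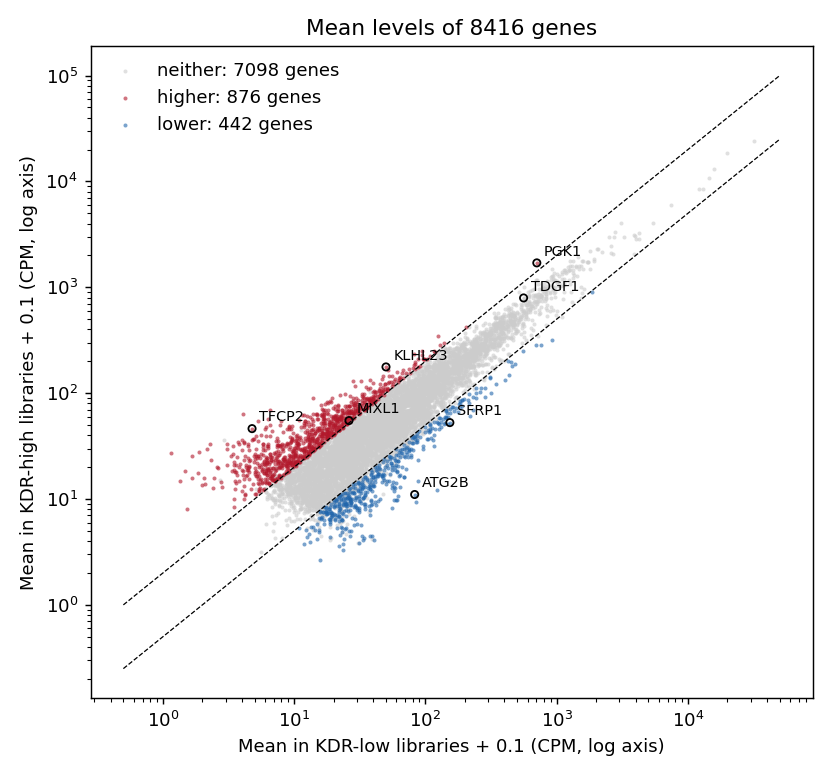
Mean CPM + 0.1 of each of 8416 genes in KDR-low (x) and KDR-high (y) libraries, both on log axes, with dashed lines at 2-fold. The 876 higher genes (red) and 442 lower genes (blue) lie mostly at low and middle levels, while TDGF1, of the core pluripotency list, lies inside the lines.

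Pluripotency genes were present in both classes. Of 18 genes on the core pluripotency list, 14 were abundant enough to be considered. None was past the fold in either direction, against 10.4% and 5.25% of all genes. Genes past the fold were less abundant than all considered. Their median level over kept libraries was 27.9 CPM (higher) and 23.8 CPM (lower), against 43.1 CPM. POU5F1, TDGF1 and DPPA4 lay well above these levels. The part of abundance in this count, and in those of other abundant lists below, was not tested. The median log2 ratio of the 14 was 0.40, against 0.08 over all genes, and 13 of the 14 were above 0, as were 55% of all genes. The remaining 4 (DPPA2, ZFP42, UTF1 and FOXD3) were too low. At least 3 of the list's genes reached 10 CPM in 30 of 30 KDR-high, 18 of 19 KDR-intermediate and 23 of 23 KDR-low libraries. This is a loose measure: it includes wells without a POU5F1 read (E9 in KDR-high, A8 and E10 in KDR-low). The summed level of the whole list ran from 1447 to 7217 CPM (median 4750) in KDR-high and from 148 to 6608 CPM (median 4112) in KDR-low libraries.

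POU5F1, the defining transcription factor of the undifferentiated state, was 0 CPM at the lowest, 566 at the median and 896 at the highest in KDR-high libraries. In KDR-low libraries it was 0, 421 and 1050 CPM. The means were 484 ± 225 CPM (SD, n = 30) and 450 ± 322 CPM (SD, n = 23), and 29 of 30 and 20 of 23 libraries reached 10 CPM. The 3 KDR-low libraries under 10 CPM were wells A8, E10 and F10. NANOG, a homeodomain factor of the same network, had means of 57.5 ± 52.6 and 50.2 ± 62.2 CPM. SOX2, the partner of POU5F1 on DNA, had means of 33.7 ± 51.9 and 26.8 ± 27.3 CPM. All ranges overlapped, as they did for every gene considered. Each of these differences was smaller than the SD over cells. That was also so for MIXL1, a gene past the fold described below, so it does not set these genes apart.

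TDGF1 (CRIPTO), the NODAL co-receptor, ran from 188 to 1546 CPM with a median of 627 in KDR-high libraries and from 4.85 to 1788 CPM with a median of 509 in KDR-low ones. GDF3, a TGF-beta family ligand of stem cells, ran from 0 to 3036 CPM (median 878) against 0 to 1761 CPM (median 326), with means of 898 ± 698 and 516 ± 560 CPM. GDF3 thus had a log2 ratio of 0.80 without passing 2-fold. DPPA4, a chromatin factor of the undifferentiated state, had medians of 558 and 564 CPM. L1TD1, an RNA-binding protein of stem cells, had a log2 ratio of -0.04, the one negative value on the list.

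Of the 10 genes on the list for the primed state, all were considered, with a median log2 ratio of 0.14. In this list 1 gene was higher and 1 was lower, beside 10.4% and 5.25% of all genes. SALL2, a zinc-finger factor, was 3.14-fold higher in KDR-high libraries (39.7 ± 69 against 12.6 ± 35.2 CPM), and 17 of 30 against 3 of 23 libraries reached 10 CPM. Its fold was 2.29 without well C7 and 6.25 without well A8. TCF7L1, a WNT-responsive repressor, was 2.12-fold lower (12.2 ± 28.9 against 25.9 ± 42.7 CPM). That difference rested on single wells and on the plate part: 1.69-fold without E8, 3.57-fold without E3, and a log2 ratio of -1.45 in rows A to E and H against 0.17 in rows F and G. CD24 and THY1, surface proteins of stem cells, had log2 ratios of -0.14 and 0.50. Of 10 genes of the naive state, TFCP2L1, KLF4 and 7 others were too low to be considered, and TFAP2C, an AP-2 transcription factor, had means of 11.4 ± 22.2 and 25.8 ± 59.7 CPM. It was 2.27-fold lower in KDR-high libraries and 1.96-fold with the highest library of each class left out, so it was not past the fold.

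Few mesoderm genes were abundant enough to compare. The primitive streak list and the lateral and cardiac mesoderm list together held 37 genes, of which 9 were considered, 2 were higher, none was lower, beside 10.4% and 5.25% of all genes, and the median log2 ratio was 0.22. The 2 higher ones were MIXL1 and FGF8, both of the primitive streak, where 6 of 17 genes were considered with a median of 0.59. The 3 considered lateral mesoderm genes, TBX3, CDH11 and BMP4, had log2 ratios of -0.40, -0.90 and 0.22. The median of the joined lists was 0.03 in rows A to E and H, 1.08 in rows F and G, and -0.34 where both classes were held to GAPDH of at least 500 CPM. The considered members were chosen anew in each of these sets of libraries, so they need not be the same 9 genes.

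MIXL1, a homeobox factor of the streak, was 0 CPM at the lowest, 14.8 at the median and 323 at the highest in KDR-high libraries, and 0, 3.88 and 201 CPM in KDR-low ones. It reached 10 CPM in 17 of 30 KDR-high libraries (56.7%, interval 37.4% to 74.5%) and in 8 of 23 KDR-low libraries (34.8%, interval 16.4% to 57.3%). The means, 55 ± 77.4 and 26.1 ± 52.1 CPM, differed 2.11-fold. The fold was 1.76 without well G11, and the log2 ratio was 1.08 over all libraries but 0.61 with GAPDH of at least 500 CPM. The KDR-high library was the higher in 69.8% of the 690 pairs of 1 KDR-high and 1 KDR-low library. FGF8, a ligand secreted by the streak, had means of 21.8 ± 37.6 and 10 ± 18.3 CPM, or 2.18-fold, and 1.68-fold without well E9.

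EOMES, a T-box factor of the streak and endoderm, had medians of 4.20 and 2.51 CPM and means of 53.6 ± 82 and 30.5 ± 86.9 CPM. Its means differed 1.76-fold, and 3.22-fold with the highest library of each class left out, so it was not past the fold. In all, 13 of 30 and 4 of 23 libraries reached 10 CPM (43.3%, interval 25.5% to 62.6%, and 17.4%, interval 4.95% to 38.8%). Most other defining mesoderm markers were low in both classes. TBXT, listed as T, had medians of 1.83 and 0 CPM and reached 10 CPM in 5 libraries of each class. MESP1, TBX6, HAND1 and FOXF1, factors of nascent and lateral mesoderm, had medians of at most 0.94 CPM in either class. PDGFRA, a receptor paired with KDR in sorting mesoderm progenitors, reached 10 CPM in 6 of 30 and 8 of 23 libraries. APLNR, the apelin receptor of early mesoderm, did so in 6 of 30 and 1 of 23. SNAI1, which represses E-cadherin in the streak and is named after its values were seen, did so in 5 of 30 and 0 of 23, the latter with an interval of 0% to 14.8%. At least 3 streak genes reached 10 CPM in 22 of 30 KDR-high libraries (73.3%, interval 54.1% to 87.7%), 11 of 19 KDR-intermediate ones (57.9%, interval 33.5% to 79.7%) and 11 of 23 KDR-low ones (47.8%, interval 26.8% to 69.4%). At least 3 lateral and cardiac mesoderm genes did so in 10 of 30 KDR-high (33.3%, interval 17.3% to 52.8%) and 10 of 23 KDR-low libraries (43.5%, interval 23.2% to 65.5%). Depth was larger in KDR-high libraries, and its part in these counts was not tested.

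**Figure D4:**
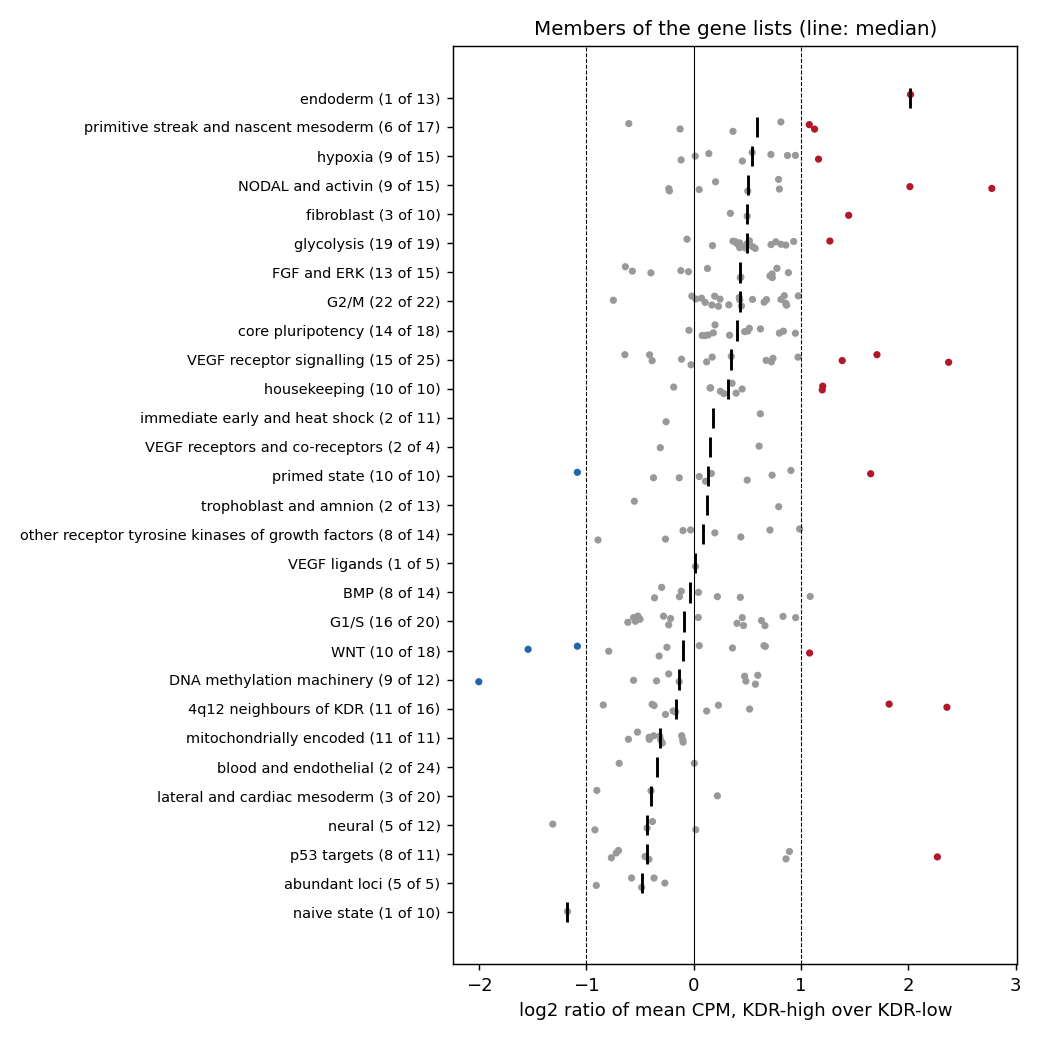
log2 ratio of mean CPM, KDR-high over KDR-low, for the considered members of each gene list, with the number considered of the number listed; red points are higher, blue points lower and grey points neither, and black lines are medians. Core pluripotency members lie within 2-fold (-0.04 to 0.95), the streak list has 2 red points, and blood and endothelial genes have none.

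Blood and endothelial genes were low in both classes. Of 24 listed, 22 were too low to be considered, among them ETV2, TAL1, LMO2, PECAM1 and CD34, with medians between 0 and 1.78 CPM. CDH5, the adherens junction cadherin of endothelium, had medians of 21 CPM in KDR-high and 35.9 CPM in KDR-low libraries and a log2 ratio of -0.70. Its highest values were in wells E10 (173 CPM) and F10 (163 CPM), which had 196136 and 257404 gene reads. The well with the most gene reads, H5 (1877837), had 14.4 CPM. KDR-high libraries were deeper at the median, and the part of depth in the CDH5 ratio was not tested. TEK, the angiopoietin receptor, had means of 23.4 ± 50.4 and 23.4 ± 43.5 CPM. The summed level of the whole list ran from 10.5 to 309 CPM in KDR-high and from 19.4 to 431 CPM in KDR-low libraries. At least 3 of its genes reached 10 CPM in 6 of 30 and 7 of 23 libraries.

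Of 5 VEGF ligands 1 was considered, and of 4 other VEGF receptors and co-receptors 2 were. None of these 3 was past the fold, beside 10.4% higher and 5.25% lower among all genes. VEGFA, the main ligand, had means of 11.2 ± 13 and 11.1 ± 9.94 CPM, and VEGFB, VEGFC, PGF and FIGF (VEGFD) were too low to be considered. FLT1 (VEGF receptor 1) ran from 1.95 to 1215 CPM with a median of 127 in KDR-high libraries and from 0 to 592 CPM with a median of 47.8 in KDR-low ones. Its mean was 1.53-fold higher, but its summed reads gave 179 CPM (interval 174 to 184) and 177 CPM (interval 170 to 184). FLT4 (VEGF receptor 3) had medians of 1.69 and 2.99 CPM. The co-receptor NRP1 had medians of 0 in both classes, and NRP2 had a log2 ratio of -0.31.

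Of 25 genes that act downstream of the receptor, 15 were considered, 3 were higher and none was lower (10.4% and 5.25% of all genes), with a median log2 ratio of 0.35. PTPN1, a phosphatase that dephosphorylates KDR, was 5.19-fold higher (42.5 ± 56.7 against 8.19 ± 17.1 CPM) and 8.29-fold without well D1. PTPRJ, a receptor phosphatase at cell junctions, had means of 23.1 ± 32.4 and 7.06 ± 13 CPM. MAP2K1 (MEK1), a kinase of the ERK cascade, had means of 41.2 ± 67.5 and 15.8 ± 43.3 CPM, a 2.61-fold difference that was 1.98-fold without well H7 and 5.53-fold without B5. Its log2 ratio turned to -0.09 without the GAPDH minimum. PLCG1, the phospholipase bound by the receptor, had means of 18.3 ± 27.5 and 19.8 ± 25.5 CPM. Of 14 other growth factor receptor kinases, 8 were considered and none was past the fold; FGFR1, an FGF receptor of stem cells, had a log2 ratio of 0.71.

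The genes around KDR at 4q12 did not follow it as a block. Of 16 neighbours, 11 were considered, 2 were higher and none was lower (10.4% and 5.25% of all genes), with a median log2 ratio of -0.17. The nearest considered one on the side of higher coordinates was SRD5A3 (220.5 kb away), a reductase of dolichol synthesis, with a log2 ratio of -0.17. On the other side it was KIT (338 kb away), the stem cell factor receptor, named for its position, with a log2 ratio of -0.26. The higher ones, RASL11B (2211 kb away) and FIP1L1 (1617 kb away), a polyadenylation factor, had log2 ratios of 2.36 and 1.82.

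Among the signals that hold or release the stem cell state, 2 of 9 considered genes of the NODAL and activin list were higher and none lower, beside 10.4% and 5.25% of all genes (median log2 ratio 0.50). ACVR2A, a type II activin receptor, had means of 54 ± 83.6 and 7.87 ± 11.2 CPM. CER1, a secreted NODAL antagonist, had means of 48 ± 132 and 11.9 ± 36.3 CPM, a 4.04-fold difference that was 2.31-fold without well E7 and 8.01-fold without F8. It reached 10 CPM in 10 of 30 and 2 of 23 libraries. None of 13 considered members of the FGF and ERK list, which leaves out FGF8 and MAP2K1 (both higher, as given above), passed the fold, with a median of 0.43. None of 8 considered BMP genes did, with a median of -0.04.

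On the WNT list 1 of 10 considered genes was higher and 2 were lower, beside 10.4% and 5.25% of all genes (median -0.10). SFRP1, a secreted WNT antagonist, ran from 2.14 to 305 CPM (median 18.7) in KDR-high libraries and from 4.84 to 756 CPM (median 66.9) in KDR-low ones. Its means of 52.6 ± 70.8 and 153 ± 194 CPM differed in the same direction in rows A to E and H (log2 ratio -1.42), in the F and G rows (-2.59) and with GAPDH of at least 500 CPM (-1.86). TCF7L2, a transcription factor of the pathway, was 2.11-fold higher over all libraries and 1.74-fold without well E3, with a log2 ratio of 1.55 in rows A to E and H against -0.49 in rows F and G. The lower gene besides SFRP1 was TCF7L1, described above.

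The 12 higher genes with the largest share of pairs in that direction were led by genes outside these lists. KLHL23, a kelch-repeat protein at chr2:169694488-169776989 whose reads a read-through transcript may share, was 5.33 CPM at the lowest, 144 at the median and 472 at the highest in KDR-high libraries. In KDR-low libraries it was 0, 31.5 and 288 CPM. The KDR-high library was the higher in 82.8% of pairs, the largest share of any gene, and the mean was 3.54-fold higher. KLHL23 passed the fold in rows A to E and H but not in rows F and G. PDAP1, a phosphoprotein named for its binding to PDGF-A, at chr7:99392048-99408829, ran from 2.52 to 298 CPM (median 48.2) against 0 to 53.3 CPM (median 11.1), with a log2 ratio of 1.71 in rows A to E and H against 1.70 in rows F and G. Both genes overlapped between classes but had most KDR-low libraries below the KDR-high median.

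DMKN, dermokine, a secreted protein known from epidermis, at chr19:35497220-35513658, had 3.46, 162 and 358 CPM against 0, 93.1 and 214 CPM. Its 2.01-fold difference fell to 1.92-fold without well A10, and its log2 ratio was 0.56 with GAPDH of at least 500 CPM. TFCP2, a grainyhead-family transcription factor at chr12:51093663-51173134, was read in some libraries only. It reached 10 CPM in 14 of 30 KDR-high and 2 of 23 KDR-low libraries (46.7%, interval 28.3% to 65.7%, and 8.70%, interval 1.07% to 28%). In KDR-intermediate libraries it reached 10 CPM in 11 of 19. Its means of 46.1 ± 75.5 and 4.68 ± 13.5 CPM differed 9.86-fold, and 18.3-fold without well C10.

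AMD1, an enzyme of polyamine synthesis, had medians of 305 and 43.7 CPM. SLC39A7, a zinc transporter of the endoplasmic reticulum, had medians of 31.8 and 0 CPM and a fold of 3.89, which was 7.07 without well A6. CCNY, a membrane-bound cyclin, had medians of 38.3 and 4.48 CPM. NCBP1, the large cap-binding subunit, was 4.60-fold higher, and 9.14-fold without B6. DTWD2, a tRNA-modifying enzyme, was 10.8-fold higher and 65.5-fold without F6, since it had 2 KDR-low libraries at 10 CPM. TMEM189, a plasmalogen desaturase whose reads a read-through transcript may share, was 7.94-fold higher and 17.9-fold without D1. PLD3, a lysosomal nuclease, had medians of 43.8 and 3.10 CPM. MPHOSPH10, a ribosomal RNA processing protein, was 2.30-fold higher, 1.97-fold without C7 and 4.39-fold without F7, and its log2 ratio was 2.38 in rows A to E and H but -0.23 in rows F and G.

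**Figure D5:**
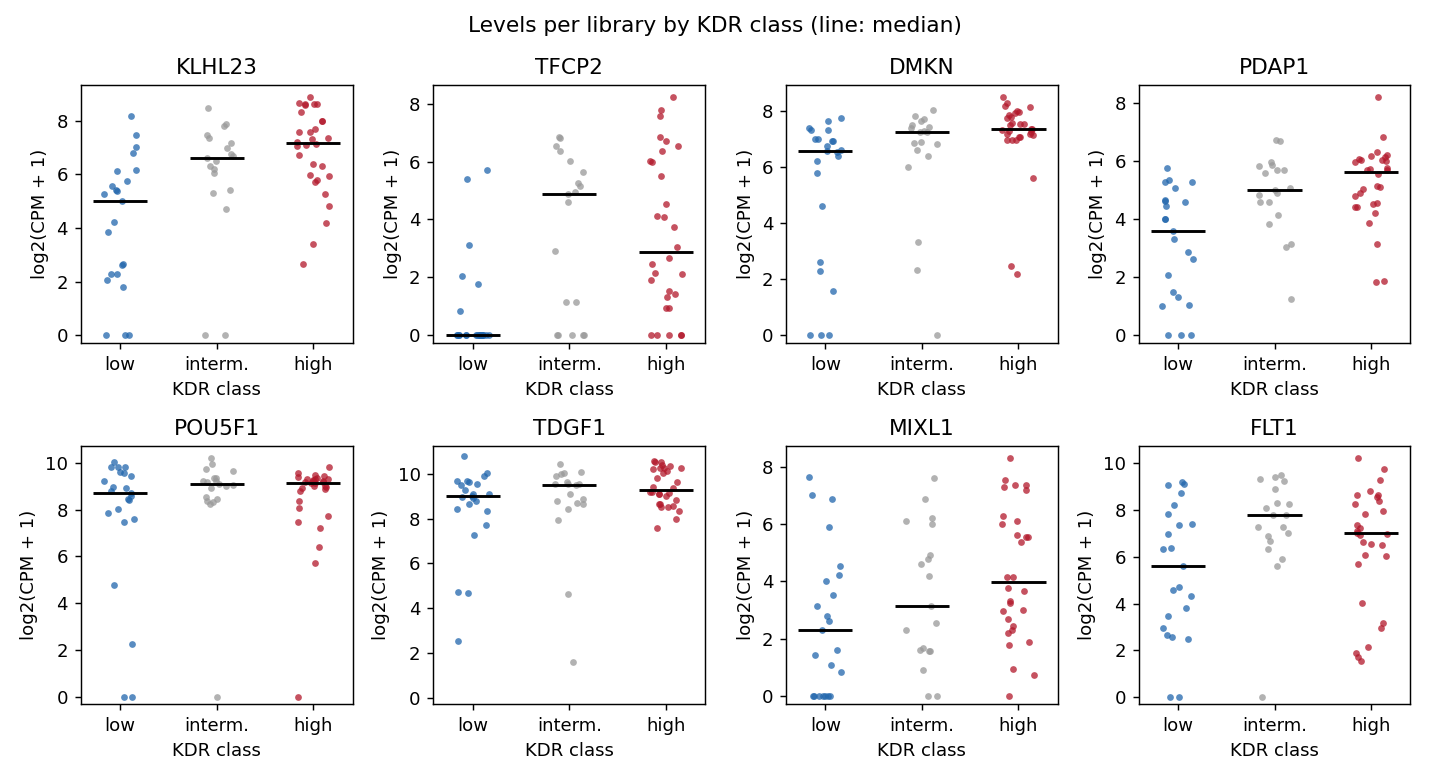
log2(CPM + 1) of 8 genes in each kept library by KDR class; points are libraries and lines are medians. KLHL23, DMKN and PDAP1 have lower medians in KDR-low libraries, TFCP2 is at 0 in most of them, and POU5F1 and TDGF1 overlap across the classes.

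The 250 bases before the RefSeq starts of a leading higher and a leading lower gene, both outside the annotated span of their gene, are shown to be set beside that of KDR. They lie at chr12:51173136-51173385 on the minus strand (TFCP2) and chr5:134523759-134524008 on the plus strand (JADE2, described below), with GC boxes in capitals.
TFCP2: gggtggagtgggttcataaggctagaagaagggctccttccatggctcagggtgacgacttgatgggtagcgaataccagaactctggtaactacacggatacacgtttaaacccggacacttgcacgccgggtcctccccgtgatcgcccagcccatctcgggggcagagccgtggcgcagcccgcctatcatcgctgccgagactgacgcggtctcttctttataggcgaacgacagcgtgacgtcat
JADE2: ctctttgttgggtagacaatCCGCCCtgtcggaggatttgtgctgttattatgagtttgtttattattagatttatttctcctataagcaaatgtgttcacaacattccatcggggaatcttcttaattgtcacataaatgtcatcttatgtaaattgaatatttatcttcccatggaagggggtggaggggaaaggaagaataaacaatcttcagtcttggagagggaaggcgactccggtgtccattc
The window of TFCP2 held no GC box, 1 TATAAA, 21 CG dinucleotides and 2 CCGG sites. That of JADE2 held 1 GC box, no TATAAA, 5 CG and 1 CCGG. Of the other leading higher genes with an entry, DMKN and PDAP1 held no GC box and AMD1 and SLC39A7 held 1 each, and of the lower genes TDRD10 held 2. Entries were found for 8 of the 13 genes looked up, KDR included.

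The genes whose levels ran most like KDR over all 72 kept libraries were PDAP1 (Spearman rho 0.49), DMKN (0.47), CCNY (0.43), KLHL23 (0.42) and GOLT1B (0.41), the last a Golgi transport protein. Those libraries share a plate and differ in depth, and GAPDH itself had a rho of 0.32 with KDR. The lowest rho of any gene was -0.36.

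The 12 lower genes were mostly at low levels, below 30 CPM on average in KDR-high libraries. TCP10, a testis-expressed gene at chr6:167357031-167384510 with near-identical copies that can split its reads, was 0 CPM at the lowest, 8.85 at the median and 29.4 at the highest in KDR-high libraries, against 0.97, 17.1 and 117 CPM in KDR-low ones. The KDR-high library was the higher in 24.3% of pairs, the smallest share of any gene. The highest values of TCP10, 117 and 66.3 CPM, were in wells F10 and E10, which had few gene reads. The part of depth in this difference was not tested. ZZEF1, a zinc-finger and EF-hand protein, had medians of 2.66 and 26 CPM and was 4.51-fold lower, with log2 ratios of -3.06 in rows A to E and H against -1.01 in rows F and G. Of the KDR-low libraries, 15 of 23 reached 10 CPM of ZZEF1 against 8 of 30 KDR-high ones (65.2%, interval 42.7% to 83.6%, and 26.7%, interval 12.3% to 45.9%).

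Several of the lower genes rested on few cells. ATG2B, a lipid transfer protein of autophagy, was 7.57-fold lower and 4.63-fold without well E10. ENC1, a kelch protein, was 2.88-fold lower, 1.43-fold without E5 and 5.98-fold without A11. JADE2, a chromatin-associated protein, was 2.31-fold lower and 1.97-fold without F10. IRX2, a homeobox factor, was 2.45-fold lower and 1.81-fold without A8. TDRD10, a tudor-domain protein, and CPNE8, a copine, were 2.93-fold and 4.35-fold lower, and 4.55-fold and 7.79-fold without G9. EML6, ESRRG, MAFK and the transcript RP11-726G1.1 were lower with log2 ratios of -1.37, -1.45, -1.83 and -1.78. The log2 ratios of EML6, TDRD10, ESRRG and MAFK turned positive when KDR-low was narrowed to the 8 libraries without a KDR read. Those 8 libraries all lay in rows A to E, while KDR-high kept its libraries of rows F and G. The plate part thus changed together with the KDR-low threshold, and the part of each was not tested.

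Each plate part gave its own comparison, with no library in common. Over the same 8416 genes, 1274 (15.1%) were higher and 334 (3.97%) lower in rows A to E and H, while 1528 (18.2%) were higher and 1100 (13.1%) lower in rows F and G. The parts shared 314 higher genes, which were 24.6% of the first list and 20.5% of the second, beside 18.2% and 15.1% of all genes in the other part. They shared 68 lower genes, 20.4% of the first list and 6.18% of the second, beside 13.1% and 3.97%. Of the 12 leading higher genes, 8 passed in both parts: TFCP2, PDAP1, AMD1, SLC39A7, DTWD2, NCBP1, TMEM189 and PLD3. Of the 12 leading lower genes, 3 did: RP11-726G1.1, MAFK and ESRRG. Those genes were picked from all libraries, so their presence in both parts is no separate evidence.

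Most glycolytic genes had higher means in KDR-high libraries without passing the fold. On the glycolysis list 18 of 19 members had a positive log2 ratio (median 0.50), beside 55% of all genes. Of the 19, 1 was higher and none was lower, beside 10.4% and 5.25% of all genes. That one was PGK1, an ATP-generating enzyme of glycolysis, with 6.73 CPM at the lowest, 1228 at the median and 3834 at the highest in KDR-high libraries against 0, 760 and 1670 CPM. Its log2 ratio was 1.23 in rows A to E and H, 1.46 in rows F and G, and 1.06 with GAPDH of at least 500 CPM. GAPDH, left out of the list as it chose libraries, had a log2 ratio of 0.68. LDHB, a lactate dehydrogenase subunit, had medians of 4275 and 3328 CPM, with 5.10 CPM in E10.

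The hypoxia list had 1 of 9 considered genes higher and none lower, beside 10.4% and 5.25% of all genes. The higher one was the histone demethylase KDM3A, at 2.24-fold over all libraries, 1.57-fold without well B2 and 3.89-fold without E5. Its log2 ratio was 1.34 in rows A to E and H against -0.57 in rows F and G. Of 10 housekeeping genes, 2 were higher and none was lower (10.4% and 5.25% of all genes), with a median log2 ratio of 0.32. The higher ones were SDHA, a subunit of mitochondrial complex II, and GUSB, a lysosomal enzyme. GUSB was 2.30-fold higher, 1.86-fold without H10 and 3.69-fold without B5. All 11 mitochondrially encoded genes had negative log2 ratios (median -0.32), and none passed the fold. Housekeeping, glycolytic and stem cell genes thus all had positive medians, beside higher GAPDH and a lower mitochondrial tail in KDR-high libraries, whose part was not tested.

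None of 22 G2/M genes and none of 16 considered G1/S genes passed the fold, beside 10.4% higher and 5.25% lower among all genes. Their median log2 ratios were 0.43 and -0.09. Of the G2/M genes 20 of 22 had a positive log2 ratio, as did 8 of the 16 G1/S genes and 55% of all genes. TOP2A, the topoisomerase of dividing cells, had medians of 700.1 and 666 CPM, and PCNA, the replication clamp, had medians of 204 and 260 CPM. CCNB2, a mitotic cyclin, had the lowest log2 ratio on the G2/M list, -0.75.

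Of 9 considered genes of the DNA methylation machinery, 8 were not past the fold. None was higher and 1 was lower, beside 10.4% and 5.25% of all genes. TET3, a 5-methylcytosine oxidase, was 4.01-fold lower in KDR-high libraries but 1.35-fold without well D11 and 7.32-fold without H3. DNMT3B, a de novo methyltransferase, had means of 227 ± 162 and 163 ± 203 CPM, and DNMT3A, its relative, had 93.7 ± 71.2 and 119 ± 68.6 CPM. Of 8 considered p53 targets, 1 was higher and none was lower, beside the same shares of all genes. The higher one was TP53I3, an oxidoreductase, with means of 23.7 ± 51.8 and 4.90 ± 10.9 CPM.

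Markers of other cell types were compared for both classes, beside 10.4% higher and 5.25% lower among all genes. Among neural genes 5 of 12 were considered, none was past the fold and the median log2 ratio was -0.44. PAX6, a neuroectoderm factor, had medians of 86.9 and 140.1 CPM. At least 3 neural genes reached 10 CPM in 26 of 30 and 21 of 23 libraries. At least 3 trophoblast or amnion genes did so in 1 of 30 KDR-high (3.33%, interval 0.0844% to 17.2%) and 6 of 23 KDR-low libraries (26.1%, interval 10.2% to 48.4%). Of 13 such genes 2 were considered and none was past the fold, and GATA3, a trophoblast factor, had medians of 10.7 and 12.6 CPM. Of 13 endoderm genes CER1 alone was considered, and SOX17 had medians of 0 in both classes. Of 10 fibroblast genes 3 were considered, 1 was higher and none was lower. That one was TAGLN, an actin-binding protein, at 2.72-fold higher and 4.18-fold without F1. COL1A1, COL3A1, DCN and LUM were too low to be considered. Of the immediate early and heat shock genes, 2 of 11 were considered and neither was past the fold.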

How the data were processed

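Single-cell RNA libraries of 96 wells were analysed. The authors deposited STAR read counts per gene, not normalized, made with STAR 2.7.3a on GRCh38.p2 (hg38) per the submitters' processing notes. The annotation release is not given in the sources used here, and the bisulfite libraries were not analysed here. Counts of either strand were used, so overlapping and antisense genes share reads. Wells follow the sample titles. Counts were scaled to CPM of gene rows, leaving out the unmapped, multimapped, ambiguous and no-feature rows (88.8% of all reads over the 96 libraries). Python 3.11.15, pandas 2.3.3, numpy 2.4.6, scipy 1.17.1, R 4.3.3, edgeR 4.0.16 (TMM) and DESeq2 1.42.0 (size factors) were used, with no test. The contrast was tested on simulated data for recovery of planted changes that were larger than the 2-fold used here. Gene positions are from GENCODE 29 (GRCh38) and promoters from RefSeq.

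The KDR classes and all 29 gene lists were chosen with earlier results of these data known. Named genes were KDR, the 12 genes in each direction with the most extreme pair shares, list members past the fold, up to 4 of the most abundant members of each list, all VEGF list members, the 5 genes most correlated with KDR and the cell type markers. Scaling, thinning, thresholds, filters, plate parts, strand and single libraries were varied.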

Additional observations from a re-analysis of the deposited data

How the results depend on the processing

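The number higher (876 over all libraries) became 443 with every library thinned to 100000 gene reads, 1804 with mean log2(CPM + 1), 392 with mean log2(CPM + 10), 1857 at a fold of 1.5, 309 at a fold of 3, 3729 with no filter on low genes, 2137 against the 8 KDR-low libraries without a KDR read, and 1502 in rows F and G with genes chosen there. The number lower (442) became 290 with TMM, 276 with median-of-ratios scaling, 225 thinned, 152 and 13 on the log scales in the same order, 1114 and 95 at folds of 1.5 and 3, 7320 unfiltered, 200 against libraries without a KDR read, 294 in rows A to E and H, 1222 in rows F and G and 670 with the highest library kept. Chosen after seeing the data were leaving out row F (269 lower), GAPDH of at least 500 CPM (285 lower), under 20% of reads outside genes (294 lower, the same libraries as rows A to E and H) and leaving out well E10. The number of genes asked differed between settings, so the counts are not shares of the same genes. It was 8416 in the main run, 5961 when thinned, 34226 with no filter and 7994 to 8848 in the other settings. Thinned libraries shared 342 of the 876 higher and 152 of the 442 lower genes, and genes no longer asked could not be shared. The core pluripotency median was positive in every setting run (0.25 to 0.88), and the mesoderm median ran from -0.39 (no filter) to 1.08 (rows F and G). The considered members were chosen anew in each setting, so these medians need not rest on the same genes. The median over all genes was 0.08 in the main run, 0.17 with TMM and 0.10 with median-of-ratios scaling. It was not taken in the other settings, so a shift shared by all genes was not set apart from the list medians. Of 45 named genes past the fold, these changed direction: EML6 (1.53), TDRD10 (1.37), ESRRG (0.20) and MAFK (0.15) against libraries without a KDR read, TCF7L1 (0.17), TCF7L2 (-0.49), KDM3A (-0.57) and MPHOSPH10 (-0.23) in rows F and G, MAP2K1 (-0.092) without the GAPDH minimum and ENC1 (0.0062) with GAPDH of at least 500 CPM, all as log2 ratios; the cause was not tested. The 8 libraries without a KDR read all lay in rows A to E, while KDR-high kept its libraries of rows F and G in that setting. No paired analysis was possible because the labels give 1 group only. Depth limits single genes: 3 reads were between 1.6 and 15.3 CPM per library.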
